A study of Mus musculus with 7 samples.

Results

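Translation factors start and elongate protein synthesis, and an ovulated oocyte, which no longer transcribes, relies on them to use its stored mRNA. The genes described here are the initiation factors (symbols of Eif and a digit) and elongation factors (symbols of Eef and a digit) of the gene table, leaving out Eif4enif1. By this symbol rule there were 59 of 18951 genes, 51 Eif and 8 Eef genes, and each of the 59 had a mean normalized count of at least 10, so no member dropped out at the filter on low values. RNA had been sequenced from pools of denuded oocytes, taken with their cumulus cells from the oviduct of C57BL/6 females aged 4 weeks and then freed of those cells with hyaluronidase. Of the 7 pools, 3 came from wild-type (WT) females and 4 from Nlrp2-null females, which lack a maternally stored NLR-family protein. A pool combined some 150 oocytes, collected from 3 to 4 mice that shared a genotype, so a value is an average over pooled animals. The labels used here name no other allele or agent.

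As background, eIF2 carries the initiator methionyl-tRNA to the small ribosomal subunit, where eIF1, eIF1A, eIF3 and eIF5 help it scan for a start codon. The complex eIF4F, made of the cap-binding eIF4E, the scaffold eIF4G and the helicase eIF4A, brings the mRNA, and eIF4E-binding proteins (4E-BPs) block the step between eIF4E and eIF4G. eIF5B then joins the large subunit, eEF1A delivers aminoacyl-tRNA, eEF2 moves the ribosome on, and eIF5A relieves stalls. Oocytes of vertebrates are known for a cap-binding paralog of their own, eIF4E1B, which is part of mRNA-storing complexes.

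The start codons of these mRNAs are shown because several of the factors decide which start codon is used, and eIF1 is the textbook case of a factor whose own mRNA carries a start codon in weak context. The windows below run 5′ to 3′, in DNA letters, over the 10 bases before the start codon, the start codon and 9 bases after it, from GENCODE transcripts of GRCm38. Capitals mark the base at position -3, the start codon and the base at position +4, counted from the A of the start codon as +1.
Eif1: atcgtatCgtATGTccgctatc
Eif1b: ctagtgtCgcATGTccactatc
Eif3b: gcgcgggCccATGCaggacgct
Eif5: ataagccAaaATGTctgtcaac
Eif2s1: ccacttcAgaATGCcggggcta
Eif4e: tcgatctAagATGGcgactgtg
Eef1a1: caaagcaAaaATGGgaaaggaa
Eef2: atccgccAccATGGtgaacttc
Eif1, Eif1b and Eif3b had neither a purine at -3 nor a G at +4, Eif5 and Eif2s1 had the purine alone, and Eif4e, Eef1a1 and Eef2 had both. Of the 46 members whose start codon was read, 41 (89.1%) had a purine at -3, against 86.4% of 10438 tested genes. A G at +4 stood in 24 of the 46 (52.2%, against 52.5% of genes), and 22 had both (47.8%, against 45.2%). The 3 members with neither made up 6.52% of the set, against 6.31% of genes. The shares of the set were thus close to those of all genes, and the Eif1 pair shared the weak context at both positions. Eef1d, Eef1g, Eif1a, Eif2b3, Eif3e, Eif3h, Eif3i, Eif4e1b, Eif4e3, Eif4ebp1, Eif4ebp3, Eif4g2 and Eif6 have no window here.

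The pools held 71073973 to 96330083 recovered whole reads. Nlrp2 itself had normalized counts of 15527 to 20130 in WT pools and 1.96 to 107 in null pools. All 10 oocyte markers, Zp3 and Gdf9 among them, were detected, the lowest being Figla (20.6 to 79.0). Of 16 cumulus and granulosa markers 15 passed the filter and 11 of these had a positive fold change in null pools. Their summed normalized count was 31506 to 38864 in WT and 36992 to 44443 in null pools, with Amh at 0 to 4.91. The mean log2 level of these markers was highest in null 4 (10.005), WT 1 (9.62) and null 3 (9.42) and lay between 8.65 and 9.13 in the other pools. The 5 oviduct epithelium markers summed to 383 to 487 in WT and 425 to 2255 in null pools, with null 4 the highest, and Foxj1 stood at 0 to 6.65. Of these markers 4 passed the filter, and all 4 had a positive fold change in null pools. Their mean log2 level was 6.18 to 6.27 in WT and 6.71 to 8.55 in null pools, so the genotypes did not overlap. The only blood marker in the table, Ptprc, was at 0.950 to 25.1. Null 3 and null 4 thus carried more signal of other cells than the other null pools by the cumulus mean, and counts without both are given below. These counts keep WT 1. They also keep null 1 and null 2, whose mean log2 levels of the oviduct markers (6.71 and 7.14) lay above all WT pools. Null 3 and null 4 are also the only null pools with library numbers in the higher range described below. Leaving out both therefore cannot tell signal of other cells from the range of library numbers.

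Translation factor mRNAs were abundant as a group. Levels are compared between genes as normalized counts per kb of merged exons, which need not be the length of the isoform the oocyte makes; values with ± are means and SDs over 3 WT or 4 null pools. The median level of the members over all pools was 951 per kb, against 143.5 for all genes tested. By this measure 16 of the 59 (27.1%) were among the 1000 highest genes, which make up 6.88% of the genes with a length. In WT, 29 members were at or above 1000 per kb and 8 were under 100 per kb. The highest and the lowest of the 7 pools differed by at most 1.5-fold in 31 members, and by more in 28. The median was 1.49-fold, against 2.04-fold for all genes tested, most of which had lower levels; genes of like level were not compared. Only 5 members spanned more than 4-fold (Eef2kmt, Eif4ebp3, Eif5a2, Eif1a and Eef1g), and Eef1g had the highest level of these.

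None of the 59 members passed the test between genotypes, which was limma on log2(normalized count + 1) at an adjusted p under 0.05 over all 15071 genes tested, 10 of which (0.0664%) passed. edgeR on recovered reads also called 0 members, against 7 genes in all (0.0464%). DESeq2 on the same reads called 1 member, Eif2s1, where it called 188 genes in all (1.25%). At an unadjusted limma p under 0.05 stood 11 members (18.6%), against 10.2% of all genes. Of these, 4 (6.78%) were higher in null pools, near the 5.28% of all genes, and 7 (11.9%) were lower, against 4.93% of all genes. In 8 members (13.6%) the 3 WT and 4 null values did not overlap, against 9.91% of all genes. The null values lay above WT in 2 of them (3.39%, against 4.74% of genes) and below in 6 (10.2%, against 5.16% of genes). The median log2 fold change of the 59 was -0.05, against 0.01 for all genes, and 36 members (61.0%) had a negative value, against 49.25% of all genes. Most members differed little, since 34 of the 59 had an absolute log2 fold change under 0.2. As in any bulk sample, fewer cells of a type and less RNA per cell cannot be told apart in these pools.

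Without null 3 and null 4 the count at an unadjusted p under 0.05 was 7 rather than 11, 11.9% of the members beside 7.17% of all genes. Of the 7, 4 were among the 11 (Eif2s1, Eif3i, Eif3l and Eif4a2) and 3 were not (Eef1b2, Eif1b and Eif6). The count also depended on single pools. Without WT 2 it was 4 (6.78%, against 6.496% of all genes), without null 3 it was 5 (8.47%, against 8.43%), without WT 1 it was 6 (10.2%, against 11.01%) and without null 1 it was 7 (11.9%, against 11.7%), so in these 4 fits the members' share lay near or below that of all genes. It was 6 (10.2%, against 7.70%) without WT 3, 7 (11.9%, against 9.18%) without null 2 and 11 (18.6%, against 9.24%) without null 4. The larger share of members than of all genes over the 7 pools thus does not hold without each pool. Eif2s1 was under 0.05 in each of these fits. In a fit adjusted for the cumulus markers' mean the count was 12 (20.3%, against 10.5% of all genes), with 10 of the 11 among them. Library numbers in the labels fall in a lower range, with 2 WT and 2 null pools, and a higher range, with 1 WT and 2 null pools. In a fit adjusted for this range the count was 8 (13.6%, against 9.04% of all genes), all among the 11. Within both ranges 10 of the 11 had the direction they had over all pools, Eif4a2 being the exception; since the 11 were chosen over these same pools, their direction is largely fixed by that choice.

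**Figure D1:**
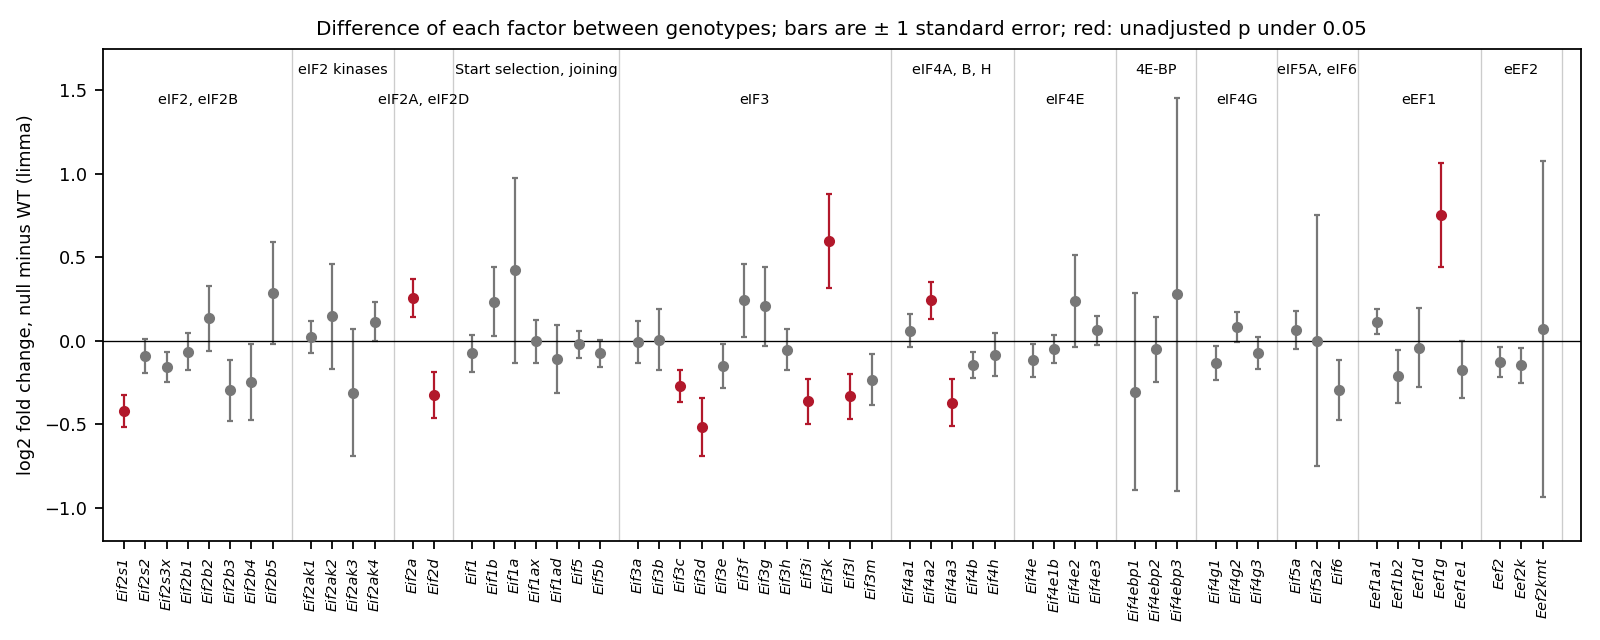
Fitted log2 fold change (null minus WT, limma) of each of the 59 factors, grouped by role; points are estimates from 3 WT and 4 null pools, bars are 1 standard error, and the 11 red points have an unadjusted p under 0.05. Most points lie near 0, Eif3d is the lowest at -0.52 and Eef1g the highest at 0.75, and none passed at an adjusted p under 0.05.

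Among the cap-binding proteins the oocyte paralog predominated. Eif4e1b (chromosome 13, 54783998 to 54788459, plus strand, GRCm38) had 27932, 27021 and 28488 across WT 1 to 3, and 31098, 27038, 24894 and 24935 across null 1 to 4 as normalized counts per kb. Eif4e, the cap-binding subunit used by most cells (chromosome 3, 138526179 to 138559696, plus strand), had 4381, 5087 and 4672 across WT 1 to 3, and 4630.4, 4964, 3978 and 3881 across null 1 to 4 per kb. Eif4e1b was higher than Eif4e in each pool, by 5.31- to 6.72-fold per kb, with a mean of 5.93 ± 0.552 (SD, n = 3) in WT and 6.21 ± 0.544 (SD, n = 4) in null pools.

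Eif4e3, a paralog that binds the cap in an atypical way, ranked between them at 13641 ± 895 per kb (SD, n = 3) in WT and 14253 ± 1009.5 (SD, n = 4) in null pools. Eif4e2, the repressive cap-binding protein also called 4EHP, was at 79.6 ± 27.5 in WT against 90.4 ± 15.4 in null pools. The order Eif4e1b, Eif4e3, Eif4e, Eif4e2 held in all 7 pools, with no overlap of ranges between neighbours. In WT, Eif4e1b made up 60.2% ± 1.56 of the summed per-kb level of the 4 genes, Eif4e3 29.5% ± 1.15, Eif4e 10.2% ± 0.776 and Eif4e2 0.172% ± 0.0595 (SD, n = 3). In null pools the shares were 59.0% ± 2.22, 31.3% ± 2.16, 9.54% ± 0.722 and 0.199% ± 0.0439 (SD, n = 4). Eif4e3 shares exon sequence on its own strand with the annotated gene Gm20696, so its level may hold reads of both. With the length of the longest transcript in place of merged exons, Eif4e1b stood 5.21-fold over Eif4e in WT.

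**Figure D2:**
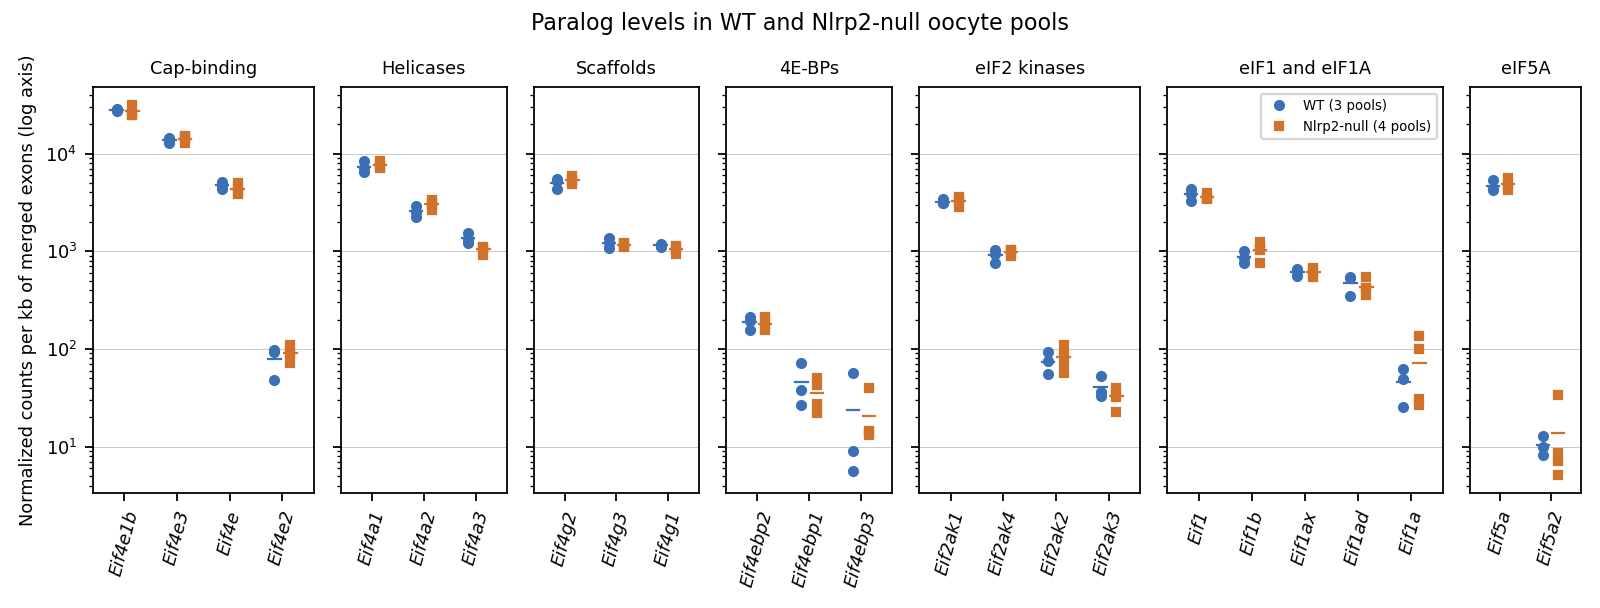
Normalized counts per kb of merged exons (log axis) of paralogs within 7 families, each point a pool (blue circles WT, n = 3; orange squares Nlrp2-null, n = 4) and each short line a group mean. Eif4e1b is the highest cap-binding gene in all 7 pools, and WT and null points overlap in every paralog plotted but Eif4a3.

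Neither Eif4e1b nor Eif4e differed between genotypes by more than the spread between pools. As normalized counts Eif4e1b had 62986, 60932 and 64240.2 across WT 1 to 3, and 70126, 60971, 56137 and 56228 across null 1 to 4. Null 1 was the highest and null 3 the lowest of the 7 pools, on either side of all WT pools. Its log2 fold change was -0.05 (SE 0.0854, 95% interval -0.23 to 0.13, limma adjusted p = 0.884), so a fold between 0.853 and 1.10 lies within the 95% interval. Eif4e had 26323, 30563 and 28070.5 across WT 1 to 3, and 27819.5, 29822, 23902 and 23318 across null 1 to 4, again with overlapping groups. Its log2 fold change was -0.12 (SE 0.098, 95% interval -0.32 to 0.09, limma adjusted p = 0.725), a 95% interval of 0.799- to 1.07-fold. Without null 3 and null 4 the estimates turned positive, at 0.06 for Eif4e1b and 0.03 for Eif4e. Eif4e1b differed by 0.08 within the lower range of library numbers and by -0.19 within the higher, and Eif4e by 0.02 and -0.25. Null 3 and null 4 are the null pools of the higher range, so cumulus signal and range cannot be told apart here.

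Of the 4E-BP genes, Eif4ebp1 and Eif4ebp3 were low, while Eif4ebp2 lay above the median of 143.5 per kb for all genes tested. Eif4ebp2 was at 188 ± 27.7 in WT against 181 ± 27.8 in null pools per kb, Eif4ebp1 at 45.7 ± 23.5 in WT against 35.8 ± 13.1 in null pools, and Eif4ebp3 at 23.7 ± 28.4 in WT against 20.4 ± 13 in null pools (SD, n = 3 and 4). Eif4ebp2 was above Eif4ebp1 in all 7 pools, while the ranges of Eif4ebp1 and Eif4ebp3 overlapped. Eif4ebp3 had only 4.21, 6.65 and 42 across WT 1 to 3, and 9.75, 29.7, 10.8 and 10.5 across null 1 to 4 as normalized counts, so its order is not firm.

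Of the eIF4G scaffolds, Eif4g2, which encodes a scaffold without the eIF4E-binding site (DAP5), was highest at 5036 ± 590.0 in WT against 5315 ± 398 in null pools per kb. Eif4g3 and Eif4g1, both of which bind eIF4E, followed at 1218 ± 142 in WT against 1155 ± 50.9 in null pools and at 1148 ± 42.6 in WT against 1049 ± 87.2 in null pools, with overlapping ranges and Eif4g3 the higher in 5 of 7 pools. Eif4g2 made up 67.9% of the summed level of the 3 genes in WT and 70.6% in null pools. None of the 3 had an unadjusted p under 0.05.

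The eIF4A helicases kept the order Eif4a1, Eif4a2, Eif4a3 in all pools, at 7321, 2558 and 1357 per kb in WT and 7609, 3019 and 1049 in null pools. Eif4a1 and Eif4a2 unwind mRNA leaders within eIF4F, while the product of Eif4a3 sits in the exon junction complex. Eif4a3 had normalized counts of 2599, 3234 and 2804 across WT 1 to 3, and 2362, 2311, 2298 and 1936 across null 1 to 4. All null values were below all WT values, null 4 the lowest and WT 2 the highest. The log2 fold change was -0.37 (SE 0.139, 95% interval -0.66 to -0.07, limma adjusted p = 0.384).

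Eif4a2 had 11916, 13357 and 15687 across WT 1 to 3, and 16273, 18079, 16106 and 14002 across null 1 to 4, with 3 null pools above all WT pools and null 4 between WT 2 and WT 3. Its log2 fold change was 0.24 (SE 0.109, 95% interval 0.01 to 0.47, limma adjusted p = 0.473), and it came to 0.44 within the lower and -0.06 within the higher range of library numbers. As a share of the per-kb level of the 3 helicases, Eif4a2 made up 21.2%, 23.9% and 23.1% in WT pools and 26.5%, 27.9%, 24.2% and 24.7% in null pools. Eif4a3 made up 11.6%, 14.6% and 10.4% in WT pools and 9.68%, 8.98%, 8.70% and 8.58% in null pools. In both shares the groups did not overlap, while for Eif4a1 they did; these shares were looked at after the counts were known and carry no test. Eif4a2 has several small RNA genes in its exons and overlaps Rfc4 on the opposite strand, and 24.8% of the 50-base stretches of Eif4a1 occur in other genes' transcripts, mostly the pseudogene Eif4a-ps4.

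Eif4b and Eif4h encode proteins that aid the helicase. Eif4b had 29778, 30588 and 29089.8 across WT 1 to 3, and 26526, 27518, 26015 and 27945 across null 1 to 4. All null values were below all WT values, but the gap was small, the log2 fold change being -0.14 (SE 0.0762, 95% interval -0.31 to 0.02, limma adjusted p = 0.554). It was named after its values were seen. Eif4h was at 549 ± 58.4 in WT against 518 ± 34 in null pools per kb, with overlapping groups.

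Eif2s1 was the member with the smallest p. It encodes the alpha subunit of eIF2, the target of the stress kinases (chromosome 12, 78861819 to 78887010, plus strand, GRCm38). As normalized counts it had 12337, 11780.3 and 12646 across WT 1 to 3, and 9808, 9848, 8246 and 8793 across null 1 to 4. The 3 WT pools lay within a narrow range, and all 4 null pools were below it, at 0.749 times the WT mean. The log2 fold change was -0.42 (SE 0.0969, 95% interval -0.63 to -0.22, limma adjusted p = 0.135); edgeR gave an adjusted p of 0.152 and DESeq2 an adjusted p of 0.00492. It was -0.29 within the lower and -0.57 within the higher range of library numbers, and -0.40 in a fit adjusted for the cumulus markers' mean (adjusted p = 0.0922). Over all 22 alternatives it ran from -0.48 to -0.32 with an adjusted p between 0.00492 and 0.575, and DESeq2 gave the only call.

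The other eIF2 subunits did not share this separation. Eif2s2, the beta subunit, had 33457, 28333 and 28532 across WT 1 to 3, and 30182, 24917, 25878 and 32467 across null 1 to 4, and Eif2s3x, the gamma subunit gene on chromosome X, had 15929.8, 16252 and 15295 across WT 1 to 3, and 15369, 15208, 13426 and 12980.5 across null 1 to 4. The groups overlapped in both, at log2 fold changes of -0.09 (SE 0.102) and -0.16 (SE 0.0916). Per kb the order was Eif2s2, Eif2s3x, Eif2s1, with overlapping ranges of the 2 higher ones. Eif2s1 made up 21.4%, 22.0% and 23.7% of the summed per-kb level of the 3 subunits in WT pools 1 to 3. In null pools 1 to 4 its share was 18.9%, 20.6%, 18.5% and 17.8%, all below WT; like the helicase shares these were looked at afterwards, with no test. In Eif2s3x 34.6% of the 50-base stretches occur in another gene's transcripts, here the pseudogene Gm2223, so its level is uncertain. For Eif2s1 that share was 5.76%, and no exon of another gene overlapped it.

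The guanine exchange factor eIF2B, which recharges eIF2, had unequal subunit mRNAs. Eif2b1 was at 10469.6 ± 1742 in WT against 9964 ± 1039 in null pools per kb and made up 88.4% ± 1.53 of the summed WT level of the 5 genes (SD, n = 3). Eif2b2 followed at 572 ± 118 in WT against 624 ± 82.4 in null pools, then Eif2b3 at 350.1 ± 13 in WT against 291 ± 67.2 in null pools, Eif2b4 at 309 ± 58.8 in WT against 260.3 ± 43.5 in null pools and Eif2b5 at 129.7 ± 25.6 in WT against 159.8 ± 39.3 in null pools. Eif2b5, the catalytic subunit, was thus the lowest, 80.7-fold below Eif2b1, the regulatory alpha subunit. All 5 genes had overlapping groups and an unadjusted p over 0.05.

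Of the 4 kinases that phosphorylate eIF2 alpha, Eif2ak1 (HRI) was highest at 3225 ± 169.5 in WT against 3285 ± 318 in null pools per kb. Eif2ak4 (GCN2, which senses amino acid shortage) followed at 912 ± 144 in WT against 981 ± 65.4 in null pools. Eif2ak2 (PKR, which senses double-stranded RNA) was at 74.5 ± 18.7 in WT against 83.3 ± 23.5 in null pools, and Eif2ak3 (PERK, of the endoplasmic reticulum) at 40.9 ± 10.7 in WT against 32.9 ± 7.39 in null pools. This order held in all 7 pools, Eif2ak1 making up 75.9% ± 2.66 of the sum in WT (SD, n = 3) and 74.9% ± 2.90 in null pools (SD, n = 4). Eif2ak1 overlaps exons of Aimp2 and Ankrd61 on the opposite strand. None of the 4 kinase genes had an unadjusted p under 0.05.

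Eif2a and Eif2d encode proteins that can bring initiator tRNA without eIF2, and their values lay in opposite directions. Eif2a had 3518, 4360.5 and 4116 across WT 1 to 3, and 4632, 4759.7, 4840.4 and 4814 across null 1 to 4, the null values above all WT values and close together. Its log2 fold change was 0.26 (SE 0.114, 95% interval 0.02 to 0.50, limma adjusted p = 0.464). Eif2d had 3245, 3056 and 3174 across WT 1 to 3, and 2326, 2966, 2188 and 2666 across null 1 to 4, the null values below all WT values. Its log2 fold change was -0.33 (SE 0.137, 95% interval -0.62 to -0.03, limma adjusted p = 0.437). Both genes overlap a gene on the opposite strand, Serp1 for Eif2a and Rassf5 for Eif2d.

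The 12 eIF3 subunit genes spanned 34.1-fold in WT, from Eif3k at 117 ± 14.3 in WT against 178 ± 34.8 in null pools per kb to Eif3c at 3983 ± 394 in WT against 3296 ± 206 in null pools. Eif3h followed Eif3c at 2086 ± 25.9 in WT against 2019 ± 205 in null pools, though 20.3% of its 50-base stretches occur elsewhere. Eif3a, Eif3i, Eif3m and Eif3l lay between 1003 and 1567 per kb in WT, and Eif3e, Eif3g, Eif3b, Eif3d and Eif3f between 282 and 657. Most neighbours in this order overlapped in their ranges, while Eif3c, Eif3h and Eif3k were set off from the rest. There was also a break between Eif3l and Eif3e, with Eif3l the higher in all 7 pools and no overlap of ranges. By fold change 8 of the 12 were negative, where 49.25% of all genes were, and the median log2 value was -0.10, against 0.01 for all genes.

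**Figure D3:**
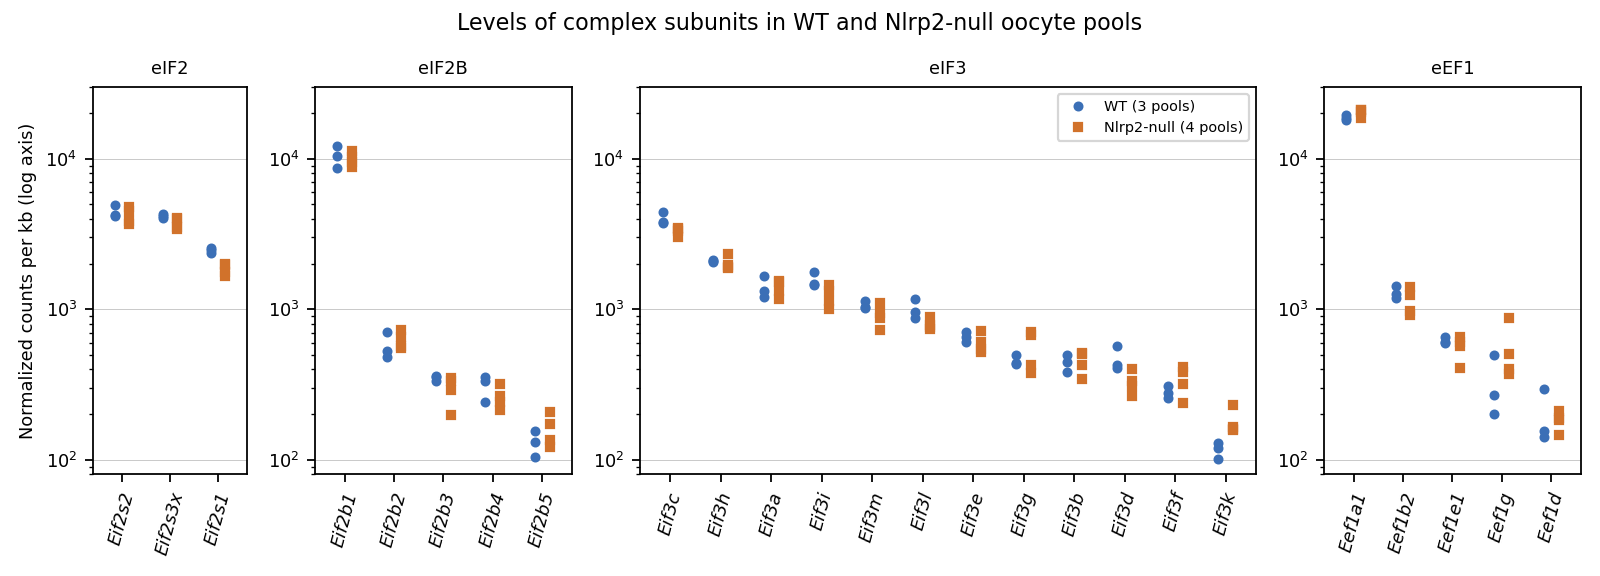
Normalized counts per kb of merged exons (log axis) of the subunits of eIF2, eIF2B, eIF3 and eEF1 with their partners, each point a pool (blue circles WT, n = 3; orange squares Nlrp2-null, n = 4). Eif2b1 lies between 8725 and 12209 per kb and the other eIF2B genes between 104 and 727, the eIF3 genes span 34.1-fold, and the null points of Eif2s1, Eif3c and Eif3d lie below all WT points.

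At an unadjusted p under 0.05 stood 5 of the 12 eIF3 genes (against 10.2% of all genes), 4 lower (against 4.93%) and 1 higher (against 5.28%) in null pools. This count also depended on the pools. Without WT 2, and without both null 3 and null 4, only Eif3i and Eif3l of the eIF3 genes were under 0.05. All 5 stayed under it without null 4. Eif3c, a core scaffold subunit, had 13304, 15578 and 13075 across WT 1 to 3, and 12244, 11906, 10570.5 and 11566 across null 1 to 4. The null values were all below WT, at a log2 fold change of -0.27 (SE 0.0965, 95% interval -0.48 to -0.07, limma adjusted p = 0.364). Eif3d, a peripheral subunit that can itself bind caps of some mRNAs, had 2027, 2845 and 2109 across WT 1 to 3, and 1542, 1984, 1317 and 1663 across null 1 to 4. Again no null value reached WT, though null 2 and WT 1 were close, and the log2 fold change was -0.52 (SE 0.175, 95% interval -0.89 to -0.14, limma adjusted p = 0.332).

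Eif3i, a subunit with a beta-propeller fold, had 5379, 5457 and 6567 across WT 1 to 3, and 4204, 4857, 3724 and 5379 across null 1 to 4. Null 4 was level with WT 1, the lowest WT pool, and the other null pools lay below the WT range. The log2 fold change was -0.36 (SE 0.135, 95% interval -0.65 to -0.07, limma adjusted p = 0.379). Eif3l had 4277, 3498 and 3174 across WT 1 to 3, and 2676, 2780.3, 3242 and 2842 across null 1 to 4, with null 3 above WT 3. Its log2 fold change was -0.33 (SE 0.136, 95% interval -0.62 to -0.04, limma adjusted p = 0.427). Within the higher range of library numbers its difference was only -0.06, against -0.50 within the lower.

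Eif3k, the partner of Eif3l in the complex, was the lowest of the eIF3 genes and the 1 of these 5 that was higher in null pools. It had 323, 273 and 348 across WT 1 to 3, and 427, 432, 621 and 443 across null 1 to 4. All null values were above WT, null 3 the highest, and the log2 fold change was 0.60 (SE 0.28, 95% interval 0.00 to 1.19, limma adjusted p = 0.488). Of the others, Eif3a, Eif3b, Eif3e, Eif3f, Eif3g, Eif3h and Eif3m had overlapping groups, at log2 fold changes from -0.23 (Eif3m) to 0.24 (Eif3f). Eif3d overlaps Gm17638 on the opposite strand; Eif3c, Eif3i, Eif3k and Eif3l overlap no other annotated exon.

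**Figure D4:**
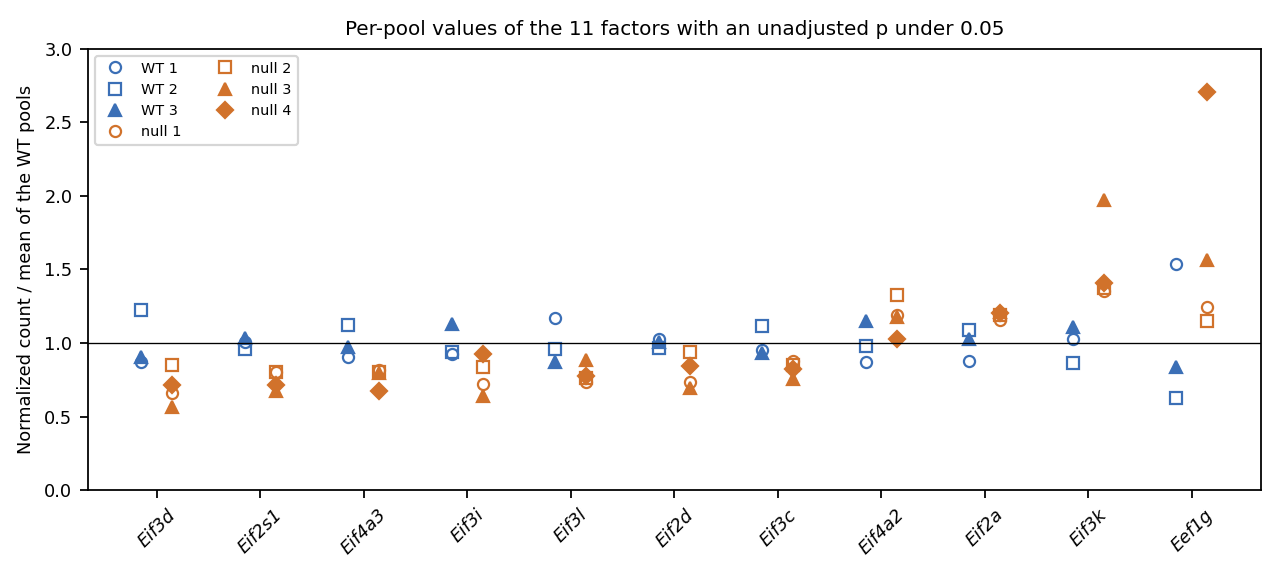
Normalized count of each pool over the mean of the 3 WT pools, for the 11 factors with an unadjusted p under 0.05, ordered by fold change (blue WT pools, orange null pools, a symbol for each pool; the line marks the WT mean). The 4 null points of Eif2s1 lie between 0.67 and 0.80 of the WT mean, and Eef1g has the widest spread, with null 4 at 2.70.

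Of the factors that choose the start codon, Eif1 had 3817 ± 543 in WT against 3606 ± 211 in null pools per kb and its paralog Eif1b 870.3 ± 130.3 in WT against 1035 ± 212 in null pools, the former 4.42-fold higher in WT. As the windows above show, both have the same weak context. The eIF1A genes were Eif1ax, on chromosome X, at 620.0 ± 49.6 in WT against 620.0 ± 59.8 in null pools, and Eif1a at 45.9 ± 19.2 in WT against 72.8 ± 53 in null pools. Eif1ad, a gene with an eIF1A-like domain, was at 475 ± 112 in WT against 436 ± 76.1 in null pools. Eif1a was the most variable of these, with 263, 105 and 205 across WT 1 to 3, and 111, 128, 414 and 561 across null 1 to 4 as normalized counts. Its 3 highest pools, null 4, null 3 and WT 1, were also those with the highest cumulus marker mean. Its log2 fold change was 0.42 (SE 0.555) over all pools and -0.04 in the fit adjusted for the cumulus markers' mean. It was -0.48 within the lower and 1.23 within the higher range of library numbers, and 0.20 in the fit adjusted for that range. Null 3 and null 4 are the null pools of the higher range, so cumulus signal and range cannot be told apart, and the cause was not tested.

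Eif5, which makes eIF2 hydrolyse GTP at the start codon, had 27774, 31770.3 and 30614 across WT 1 to 3, and 29895, 30253, 30390.2 and 27921 across null 1 to 4, the smallest spread of any member, with the highest pool 1.14 times the lowest. Eif5b had 93683, 82357 and 76809.9 across WT 1 to 3, and 77149, 76893, 85214 and 80003 across null 1 to 4 and was the highest of these 7 genes per kb, at 8642 ± 882 in WT against 8184 ± 396 in null pools. Neither the 2 nor the eIF1 and eIF1A genes had an unadjusted p under 0.05.

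Eif5a, which carries the hypusine modification, was at 4633 ± 602 in WT against 4852 ± 616 in null pools per kb and its paralog Eif5a2 at 10.4 ± 2.42 in WT against 13.7 ± 13.7 in null pools, so that Eif5a made up 99.8% of their sum in WT and 99.7% in null pools. Eif5a2 was at 65.3, 50.4 and 41.2 across WT 1 to 3, and 26, 35.8, 172 and 42.9 across null 1 to 4 as normalized counts, with null 3 far above the rest. Eif6, which keeps the large ribosomal subunit apart until it is needed, had 2227, 2036 and 2309 across WT 1 to 3, and 1478, 1623, 1684 and 2510.3 across null 1 to 4. In 3 null pools Eif6 was below all WT pools and null 4 was above them; the log2 fold change was -0.29 (SE 0.177).

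The elongation factor genes were led by Eef1a1, at 18761 ± 784 in WT against 20323 ± 1065 in null pools per kb and the second most abundant member after Eif4e1b. Its normalized counts were 48881, 45019 and 46414 across WT 1 to 3, and 51146, 52567, 46784 and 52167 across null 1 to 4, with null 3 within the WT range and the other null pools above it. The log2 fold change was 0.11 (SE 0.0761). Of its 50-base stretches 38.6% occur in other genes' transcripts, most of them in the processed pseudogene Gm13456, so the level is uncertain. Eef1b2, Eef1d and Eef1g encode the exchange factor that reloads eEF1A, and stood far below it. Eef1b2 was at 1297 ± 126 in WT against 1134 ± 234 in null pools, Eef1g at 322 ± 154 in WT against 536 ± 229.6 in null pools and Eef1d at 197 ± 83.6 in WT against 183 ± 27.2 in null pools per kb. Eef1e1, whose product belongs to the tRNA synthetase complex, was at 621 ± 30.1 in WT against 559 ± 106 in null pools.

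Eef1g had the largest positive difference of all 59 members. Its normalized counts were 1287, 522 and 701 across WT 1 to 3, and 1043, 963, 1311 and 2261 across null 1 to 4. The groups overlapped, since WT 1 was above null 1 and null 2, and null 4 stood well above every other pool. The log2 fold change was 0.75 (SE 0.309, 95% interval 0.10 to 1.41, limma adjusted p = 0.427). It came to 0.49 without null 4, 1.12 without WT 1, 0.47 without WT 2, 0.36 without both null 3 and null 4, and 0.46 in the fit adjusted for the cumulus markers' mean. Split by range of library numbers, it was 0.29 within the lower and 1.30 within the higher, which holds null 3 and null 4. Null 4, null 3 and WT 1 were its 3 highest pools, as they were for the cumulus marker mean, and null 4 also had the highest oviduct marker sum, whose part in the result was not tested. Of its 50-base stretches 44.2% occur elsewhere, mainly in the pseudogene Gm4366.

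Eef2, the translocation factor, had 18157, 18526 and 16171 across WT 1 to 3, and 15437, 16834, 15202 and 16998 across null 1 to 4, and its inhibitory kinase gene Eef2k had 9685, 9286 and 9172 across WT 1 to 3, and 9726, 8708, 7468 and 8148 across null 1 to 4. The groups overlapped in both, at log2 fold changes of -0.13 (SE 0.0889) and -0.15 (SE 0.105). Eef2kmt, a methyltransferase gene for eEF2, was low, with 100.1, 17.1 and 35.4 across WT 1 to 3, and 9.75, 17.4, 193 and 84.8 across null 1 to 4, and its pools spanned 19.8-fold.

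Whether paralog choice depended on the genotype was tested on the log2 ratio of 2 paralogs within each pool, comparing all 35 ways to split the pools in a two-sided exact permutation test, whose smallest possible p is 0.0286. Adjusted over the ratios, a single ratio could reach 0.257 at best, so the adjusted values cannot show a lone difference and the differences are given as values. Of 11 pairs 9 had both genes in the table. For Eif4e1b over Eif4e the log2 ratio of normalized counts was 1.26, 1.00 and 1.19 in WT pools and 1.33, 1.03, 1.23 and 1.27 in null pools. The difference was 0.07 (exact p = 0.486, adjusted over the 9 ratios 0.814), smaller than the SD of 0.137 in WT and 0.130 in null pools. Eif4a2 over Eif4a1 had the smallest p, with a difference of 0.18 (exact p = 0.2, adjusted 0.814). Eif1b over Eif1 differed by 0.31 (exact p = 0.286), Eif4e2 over Eif4e by 0.35 (exact p = 0.543) and Eif1a over Eif1ax by 0.42 (exact p = 0.514). Eif4g3 over Eif4g1, Eif5a2 over Eif5a, Eif4ebp2 over Eif4ebp1 and Eif2ak2 over Eif2ak4 had exact p values from 0.543 to 0.971. The difference of Eif1a over Eif1ax came to 0.06 without null 4 and 0.83 without null 1. The differences of the ratios with the low genes Eif1a, Eif5a2 and Eif2ak2 were negative within the lower and positive within the higher range of library numbers.

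Genes that act with these factors gave 0 calls by limma and 0 by DESeq2 in 5 lists. In the list of mTORC1 and eIF kinases and phosphatases, 2 of 23 tested genes (8.70%) had an unadjusted p under 0.05, against 10.2% of all genes. Atf4, the transcription factor gene whose translation rises when eIF2 is phosphorylated, had 6877, 4619 and 4201 across WT 1 to 3, and 6985, 5684, 7640.2 and 7326 across null 1 to 4, with overlapping groups and a log2 fold change of 0.43 (SE 0.154, limma adjusted p = 0.369). Gcn1l1, whose product activates GCN2, had 9083, 9156 and 9359.6 across WT 1 to 3, and 8776, 8079, 7237 and 7302 across null 1 to 4, all null values below WT, at -0.23 (SE 0.1, limma adjusted p = 0.445). The median log2 fold change of this list was 0.12, against 0.01 for all genes, and 7 of 23 were negative, where 49.25% of all genes were.

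Among 15 tested genes for poly(A) binding proteins and cap repressors 2 (13.3%) were lower at an unadjusted p under 0.05, against 4.93% of all genes, and 6 had a negative fold change. Pabpc1l, the oocyte poly(A) binding protein, had 3997, 3759 and 3179.7 across WT 1 to 3, and 3824, 2686, 2547 and 2616 across null 1 to 4, at -0.34 (SE 0.154, limma adjusted p = 0.479). Pabpc6, a low paralog, had 91.6, 56.1 and 81.5 across WT 1 to 3, and 18.4, 15.4, 11.8 and 24.1 across null 1 to 4, all null values below WT, at -2.09 (SE 0.776, limma adjusted p = 0.379). Of 13 termination, recycling and reinitiation factors 1 (7.69%) was lower at that level, against the same 4.93%, the ribosome rescue gene Pelo. It had 738, 586 and 692 across WT 1 to 3, and 371, 519, 353 and 457 across null 1 to 4, all null values below WT, at -0.67 (SE 0.253, limma adjusted p = 0.384). Of 7 tested hypusine and diphthamide genes 1 (14.3%, against 4.93%) was lower, Dph6, an enzyme gene of the diphthamide pathway that modifies eEF2. It had 66916, 59918 and 67124 across WT 1 to 3, and 57995, 53122, 55235 and 62773 across null 1 to 4, with overlapping groups, at -0.18 (SE 0.0807, limma adjusted p = 0.479). None of 10 mitochondrial translation factors had an unadjusted p under 0.05, and their median log2 fold change was -0.05.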

How the data were processed

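RNA was measured in 3 WT and 4 Nlrp2-null pools, grouped by the labels. Per the labels' protocols, total RNA was amplified with oligo d(T) and random primers (NuGEN) and sequenced on an Illumina instrument, so reads are not independent molecules. The authors deposited a gene table whose signal is a count divided by a size factor per pool, per the file headers; dividing by the smallest step in a pool gave whole reads for 100% of values (tolerance 0.01). The submitters' processing notes name the aligners TopHat2 2.0.9 and STAR 2.5.0a, the counters HTSeq and featureCounts 1.5.0-p1, the packages DESeq and DESeq2 1.22.2, HOMER, and GRCm38 (mm10) as build. The annotation and the strand setting were not given in the sources used here. Of the 59 members 25 overlap an exon of another gene, 16 of them on the opposite and 11 on the same strand, and reads of both genes cannot be told apart there. A second deposited table, of assembled transcripts without gene names, was not used here.

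The main test was limma 3.58.1 under R 4.3.3 with trended variance, fitted to log2(normalized count + 1) as null minus WT and no covariate, over 15071 genes with a mean of at least 10, at a Benjamini-Hochberg adjusted p under 0.05 (prior df 10.9, residual df 5). Fold changes are on that log2 scale. edgeR 4.0.16 and DESeq2 1.42.0 on recovered reads, other pseudocounts (0.5, 10), filters (none, 100), scalings, variance models, covariates (range of library numbers, cumulus marker mean), a replicate block, omission of each pool and omission of both null 3 and null 4 were alternatives. DESeq2 left 460 adjusted p values as NA. The labels used here state no pairing of the pools by replicate number. All pools differed beyond sampling noise within their group (lowest chi-square over its degrees of freedom 38.2). limma, edgeR and DESeq2 were tested on simulated data. Where the precision is set by the spread between pools, standard errors of the fitted fold changes had a median of 0.135 for members and 0.277 for all genes.

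Gene positions, merged exon lengths and start codons came from GENCODE vM21 (GRCm38), and start codons were read for members with an entry in the RefSeq table of promoters. A member's difference was given with its test where its unadjusted p was under 0.05, and for Eif4e1b and Eif4e in any case; of each list of other genes, at most 3 such genes were named by smallest p. The members, lists and tests were chosen with earlier results of these data known, and Eif4b and the shares within eIF2 and eIF4A were added after their values were seen.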

Additional observations from a re-analysis of the deposited data

Results flagged for a closer look

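In 5 of 68 groups of null pools that were examined, a single pool stood apart from the other 3 by Dixon's criterion. It compares the gap to the nearest pool with the whole range, on log2(normalized count + 1), and chance gives about 5 in 100. Pool values below are normalized counts. Eif3k was highest in null 3, with a gap of 0.904 of the range, and 3 null pools without it still lay above WT. Eif4a3 was lowest in null 4 (0.862), the other 3 null pools lying between 2298 and 2362, also below WT. Eif4e3 was lowest in null 4 (0.833), at 32093 against 36686 to 37685. Eif4ebp3 was highest in null 2 (0.912), at 29.7 against 9.75 to 10.8, and Eif4h was highest in null 4 (0.927), at 3158 against 2766 to 2793.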

How the results depend on the processing

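No member was called in any limma or edgeR alternative, and DESeq2 called 1. The count at an unadjusted p under 0.05 was 4 with no variance trend (6.78% of members, below the 8.31% of all genes) and 7 without both null 3 and null 4, and 4 to 11 when a pool was left out. With equal medians it was 8 (13.6%, against 9.51% of all genes). The median log2 fold change of the members was -0.11 with equal medians, -0.0841 with the cumulus covariate and -0.0808 without both null 3 and null 4. All 11 members with an unadjusted p under 0.05 in the reported fit kept their direction in 22 of 22 alternatives, which reuse the pools they were chosen on, Eif4e and Eif4e1b in 21 of 22, the exception being the fit without both null 3 and null 4 (0.0272 and 0.0605). Equal medians moved the median of all genes by -0.06 and quantile normalization by -0.05, and 6 members changed sign with a scaling, all with an absolute log2 fold change of at most 0.072. Over all genes 6 were called with equal medians, 0 with no variance trend, 68 with pool weights, 188 by DESeq2, 52 with the cumulus covariate, 0 without both null 3 and null 4, and 2 to 16 when a pool was left out; causes were not tested.

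The replicate block pairs pools by number, a pairing that the labels used here do not state. Deviations of same-numbered pools correlated at -0.163, 0.0192 and -0.0121, and so few values cannot decide whether a pairing exists. With this replicate block 0 members and 1 gene were called. An unadjusted p under 0.05 was reached by 7 members (11.9%, against 7.94% of all genes). Null 4, alone in its block, dropped out of this fit.

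When a pool was left out, the difference in the log2 paralog ratio ran from -0.00975 to 0.129 for Eif4e1b over Eif4e, -0.0314 to 0.592 for Eif4e2 over Eif4e, 0.105 to 0.258 for Eif4a2 over Eif4a1, -0.0485 to 0.154 for Eif4g3 over Eif4g1, 0.199 to 0.493 for Eif1b over Eif1, 0.0597 to 0.825 for Eif1a over Eif1ax, -0.66 to 0.27 for Eif5a2 over Eif5a, -0.11 to 0.51 for Eif4ebp2 over Eif4ebp1 and -0.20 to 0.19 for Eif2ak2 over Eif2ak4. Eif1a over Eif1ax came to -0.52 within the lower range of library numbers, Eif5a2 over Eif5a to 1.12 within the higher, and Eif2ak2 over Eif2ak4 to -0.19 within the lower range and -0.0785 with quantile normalization. With the longest transcript as length, the WT per-kb ratio was 5.21 for Eif4e1b over Eif4e, 0.0309 for Eif4e2 over Eif4e, 0.505 for Eif4a2 over Eif4a1, 0.157 for Eif1b over Eif1, 0.104 for Eif1a over Eif1ax and 0.00139 for Eif5a2 over Eif5a. Low members such as Eif4ebp3 and Eif5a2 rest on few reads, which limits what can be said of them.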

Other observations

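Of the 59 members 5 (8.47%) had null 4, WT 1 and null 3 as their 3 highest pools, the same pools that led the mean of the cumulus markers, against 6.55% of all genes tested and 5 of 15 cumulus markers. These members were Eef1g, Eef2kmt, Eif1a, Eif3a and Eif3g. The set was counted after the values had been seen, and its share lay near that of all genes.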
